A study of Mus musculus with 28 samples.

Results

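Immunoglobulin kappa variable (Igkv) genes encode the variable part of the kappa light chain of antibodies. A developing B cell joins 1 Igkv gene to 1 joining (Igkj) segment by recombination, and the joined exon is spliced to the single constant gene, Igkc. Each B cell and its descendants therefore transcribe mostly the Igkv gene that they rearranged, and the mix of Igkv transcripts in a sample reflects the B-lineage clones in it. Blood stem cells and myeloid progenitors have not made this joining.

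The members are all genes of the count table whose mouse symbol starts with Igkv. There were 103 such genes among 38924 genes in the table, of which 97 are annotated as V genes and 6 as V pseudogenes in GENCODE release M21 (build GRCm38). They belong to 19 families by the first number of the symbol, with 27 members in Igkv4 and 11 in Igkv1. All lie on chromosome 6 (GRCm38), from 18.4 to 3166 kb away from Igkj1, with 39 on the plus strand and 64 on the minus strand.

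The 28 libraries were bulk RNA sequencing of polyadenylated RNA from bone marrow cells that were recovered 4 months after transplantation, 13 of long-term haematopoietic stem cells (LT-HSC) and 15 of MPP3, a multipotent progenitor with myeloid output. In every group the marrow came from young donors and went into CD45.1 recipients, a strain marked by a variant of a leukocyte surface protein. Control marrow was Mx1-Cre, an interferon-inducible recombinase transgene. The other marrow was Dnmt3a-mutant (D3a-mut in the labels), an allele of a DNA methyltransferase gene that the labels do not describe further, nor whether it carried the transgene. With control marrow there were 3 LT-HSC and 4 MPP3 libraries from aged recipients and 4 of each from young ones. With mutant marrow there were 4 LT-HSC and 4 MPP3 libraries from aged recipients, and 2 and 3 from young ones. The strain is labelled C57BL/6 in all but 1 MPP3 library, whose label reads C57BL/7. All aged LT-HSC libraries, all aged mutant MPP3 libraries and aged control MPP3 replicate 4 pooled 2 recipients. Every other library came from 1 recipient. Recipient ages in months, the gates of the sort and whether recipient cells were removed are not given in the sources used here. Within a cell type no recipient served more than 1 library, so the spread between libraries includes the spread between recipients.

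Total counts per library ran from 5.59 to 10.79 M. The sum over 10 LT-HSC marker genes was 1049 to 3864 CPM (counts per M after library scaling) in LT-HSC and 61.7 to 939 CPM in MPP3. The sum over 10 MPP3 and myeloid progenitor markers was 9402 to 47377 CPM in MPP3 and 129 to 4333 CPM in LT-HSC, so that both marker sums kept the cell types apart. The library of aged mutant LT-HSC replicate 4 had 16323 counts of Mpo, which encodes a granule enzyme of myeloid cells, and 2 counts of Procr, a stem cell surface protein. Immunoglobulin genes took over 1% of all counts in 9 libraries, namely aged mutant LT-HSC replicates 1 and 4, all 4 aged mutant MPP3 libraries, young control MPP3 replicate 3 and young mutant MPP3 replicates 1 and 3.

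The germline ends of the 10 Igkv genes that led a library with at least 50 Igkv counts are shown here, because a library's leading gene is the main readout. Each is the last 60 coding bases of the V exon, 5′ to 3′ on the gene's own strand, read from GRCm38. Capitals run from the codon of the conserved cysteine to the end of the V exon, which is where the joining to Igkj starts and the third complementarity-determining region begins.
Igkv1-110 (chr6:68271208-68271267, plus strand): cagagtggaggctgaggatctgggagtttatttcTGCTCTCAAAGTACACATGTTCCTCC
Igkv1-117 (chr6:68121768-68121827, plus strand): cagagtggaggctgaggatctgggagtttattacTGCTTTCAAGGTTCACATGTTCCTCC
Igkv17-127 (chr6:67861600-67861659, plus strand): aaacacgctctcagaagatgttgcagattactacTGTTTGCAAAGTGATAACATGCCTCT
Igkv13-84 (chr6:68940008-68940067, plus strand): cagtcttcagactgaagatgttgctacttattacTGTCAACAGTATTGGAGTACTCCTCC
Igkv5-43 (chr6:69823355-69823414, minus strand): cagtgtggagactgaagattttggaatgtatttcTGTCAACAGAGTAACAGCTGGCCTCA
Igkv12-44 (chr6:69814631-69814690, minus strand): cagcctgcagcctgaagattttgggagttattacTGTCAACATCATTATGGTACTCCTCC
Igkv4-80 (chr6:69016558-69016617, minus strand): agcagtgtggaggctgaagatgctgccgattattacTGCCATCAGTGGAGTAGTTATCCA
Igkv4-68 (chr6:69304834-69304893, minus strand): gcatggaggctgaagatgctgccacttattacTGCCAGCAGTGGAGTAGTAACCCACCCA
Igkv4-72 (chr6:69226854-69226913, minus strand): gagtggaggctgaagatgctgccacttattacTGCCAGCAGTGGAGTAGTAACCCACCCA
Igkv6-15 (chr6:70406469-70406528, minus strand): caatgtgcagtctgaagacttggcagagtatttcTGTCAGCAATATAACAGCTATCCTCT

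Members of 1 family can be hard to tell apart with short reads. Igkv1-110 and Igkv1-117 were 97.2% identical over the coding sequence (10 mismatches in 359 aligned bases) and differed at 3 of the bases in capitals. Igkv4-68 and Igkv4-72 were 95.7% identical and ended in the same 28 capital bases. Of the 103 members, 46 were at least 95% identical to another member. Counts of such pairs can be split between copies, and the values of these genes carry that uncertainty. In aged control MPP3 replicate 4, the closest relative of its leader Igkv12-44 was Igkv12-41, which had 0 counts there. In aged mutant LT-HSC replicate 4, Igkv4-68, the closest relative of its leader Igkv4-72, also had 0 counts. In other libraries both were counted. The leader Igkv1-117 had 8428 counts beside 3425 of Igkv1-110 in aged mutant MPP3 replicate 1. The leader Igkv1-110 had 19530 beside 6086 of Igkv1-117 in aged mutant MPP3 replicate 4 and 4515 beside 2082 in young mutant MPP3 replicate 3. In aged mutant LT-HSC replicate 3, Igkv4-68 had 37 beside 30 of Igkv4-61. The leader stayed the same in 18 of 18 libraries with at least 50 Igkv counts when genes at least 95% identical were merged, and also when counts were divided by transcript length.

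Igkv transcripts were found mainly in MPP3. Of 213767 Igkv counts in all libraries, 199532 fell in MPP3 and 14235 in LT-HSC. Aged mutant LT-HSC replicates 1 and 4 held 98.9% of the LT-HSC counts. In MPP3 the summed Igkv level was 75.3 CPM in the lowest library, 1233 CPM in the median and 5493 CPM in the highest. The lowest MPP3 library, young control replicate 4, still had 551 Igkv counts. In LT-HSC, 8 of 13 libraries had at most 7 Igkv counts, and young mutant replicate 1 had 0, which allows a share of up to 3.20e-05% of its counts.

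Counts of single libraries make the spread in LT-HSC plain. The aged control LT-HSC libraries had 3, 1 and 35 Igkv counts (replicates 1 to 3), and the young control LT-HSC libraries had 2, 2, 1 and 3 (replicates 1 to 4). The aged mutant LT-HSC libraries had 7822, 7, 85 and 6251 (replicates 1 to 4), and the young mutant LT-HSC libraries 0 and 23. Replicates 1 and 4 of the aged mutant stood apart from every other LT-HSC library and lay within the range of MPP3. Intervals given here for shares are exact 95% binomial intervals, and they and the limit for a count of 0 cover counting error only.

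**Figure D1:**
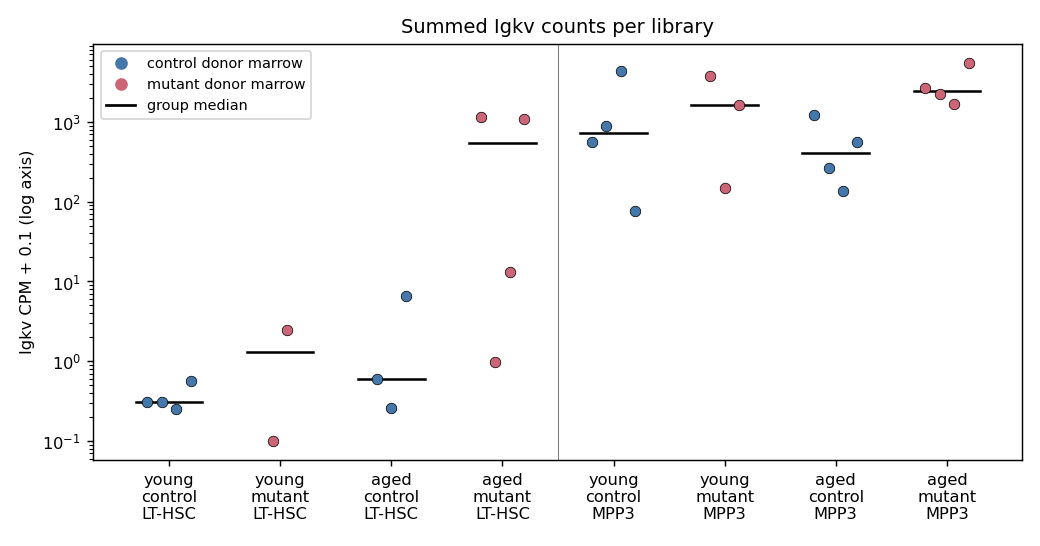
Summed Igkv CPM of each library (points, 0.1 added, log axis) in the 8 groups, with the group median as a bar. Aged mutant LT-HSC replicates 1 and 4, at 1160 and 1090 CPM, lie within the range of the MPP3 libraries, and the 4 aged mutant MPP3 libraries lie above the 4 aged control MPP3 libraries.

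The difference between the cell types was 7.37 in mean log2(CPM + 1) of the summed Igkv counts (pooled SD 2.83 between libraries of a cell type, n = 15 and 13). It was 7.89 within pool 1 and 7.51 within pool 2, the sequencing pools of 14 libraries each that the column names imply. The ranges overlapped because of the same aged mutant LT-HSC replicates 1 and 4. In bulk samples such as these, fewer cells of a type and less RNA per cell cannot be told apart.

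Among single genes, 36 of the 103 members passed the filter on low counts in the comparison of MPP3 with LT-HSC, and 7 of them were higher in MPP3 (edgeR quasi-likelihood test, Benjamini-Hochberg adjusted p under 0.05 over 16309 genes). None was lower. Over all genes tested, 12.2% passed that threshold in either direction and 6.35% were higher in MPP3. Igkv1-110 had a log2 difference of 10.78 (SE 2.10, adjusted p = 0.00277 by edgeR), Igkv10-96 of 6.98 (SE 1.58, adjusted p = 0.00414) and Igkv4-71 of 6.15 (SE 1.70, adjusted p = 0.0217). The last of these had at most 43 counts in any library (aged control MPP3 replicate 1). The other 4 were Igkv4-59, Igkv8-30, Igkv3-12 and Igkv5-43. These genes were at or near 0 in most LT-HSC libraries, so the fitted sizes depend on the small count that edgeR adds and are no bounds.

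For 24 of the 36 members tested, at least 1 group at 0 counts left the contrast of 8 group means without a usable estimate (SE over 1000). A model with terms for cell type, recipient age and genotype, added after the data were seen, gave an estimate for all 36. In it 25 members were higher in MPP3 and 0 were lower by edgeR's adjusted p, against 13.4% of all genes tested, and the 7 above were among the 25. The median log2 difference over the 36 was 7.78, against -0.05 over all genes tested. Most Igkv counts fell in MPP3, so members passed the filter mainly through their MPP3 libraries. That favours higher values in MPP3, and the median over the 36 is a description only. With libraries of the same recipients kept as a block, 14 members were higher in MPP3 and 1, Igkv6-15, was lower (log2 difference -8.28, SE 1.33, adjusted p = 0.00499 by edgeR), against 9.55% of all genes called. The lower value of Igkv6-15 rests on 7760 counts in aged mutant LT-HSC replicate 1. DESeq2 called 10 members, all higher in MPP3, against 17.8% of all genes. Without the 9 libraries with over 1% immunoglobulin counts, edgeR called 0 of 26 members (0 at an unadjusted p under 0.05), against 4.24% of all genes. Within pool 1 it called 2 members, against 1.21% of all genes, and within pool 2 it called 0, against 3.17%. When single libraries were left out it called between 2 and 7, against 6.39% to 14.2% of all genes. It called 2 without either young mutant LT-HSC library, 3 without young control MPP3 replicate 3 or young mutant MPP3 replicate 1, and 4 without aged control MPP3 replicate 1, 3 or 4 or aged mutant LT-HSC replicate 1 or 3.

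The share held by the leading Igkv genes varied widely between MPP3 libraries. The leading gene took 18.7% of the Igkv counts in the library where it was lowest, 39.1% in the median library and 98.7% in the highest. It held under 50% in 10 of the 15 libraries and over 90% in 2. The 4 most abundant genes together held 52.6% to 100% (median 96.0%). The number of genes with 3 or more counts ranged from 2 to 31 (median 9). The effective number of genes, which is the inverse of the summed squared shares and equals 1 when a single gene holds all counts, ranged from 1.03 to 9.46 (median 3.35). Since a deep library shows more rare genes, the number expected in 500 Igkv counts was also computed, and it ranged from 2.0 to 17.2 (median 7.46).

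The leader differed between libraries. Among the 15 MPP3 libraries there were 7 leading genes, and among the 18 libraries with at least 50 Igkv counts there were 10. Of the 103 members, 75 had a count somewhere and 69 reached 3 counts in at least 1 library. Of these 69, 22 did so in exactly 1 library. In MPP3, 67 members reached 3 counts in at least 1 library, but 3 members did so in 8 or more of the 15 (Igkv1-110, Igkv8-30 and Igkv10-96). The remaining 28 members were at 0 in every library, and the 6 pseudogenes had 1 count in all.

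**Figure D2:**
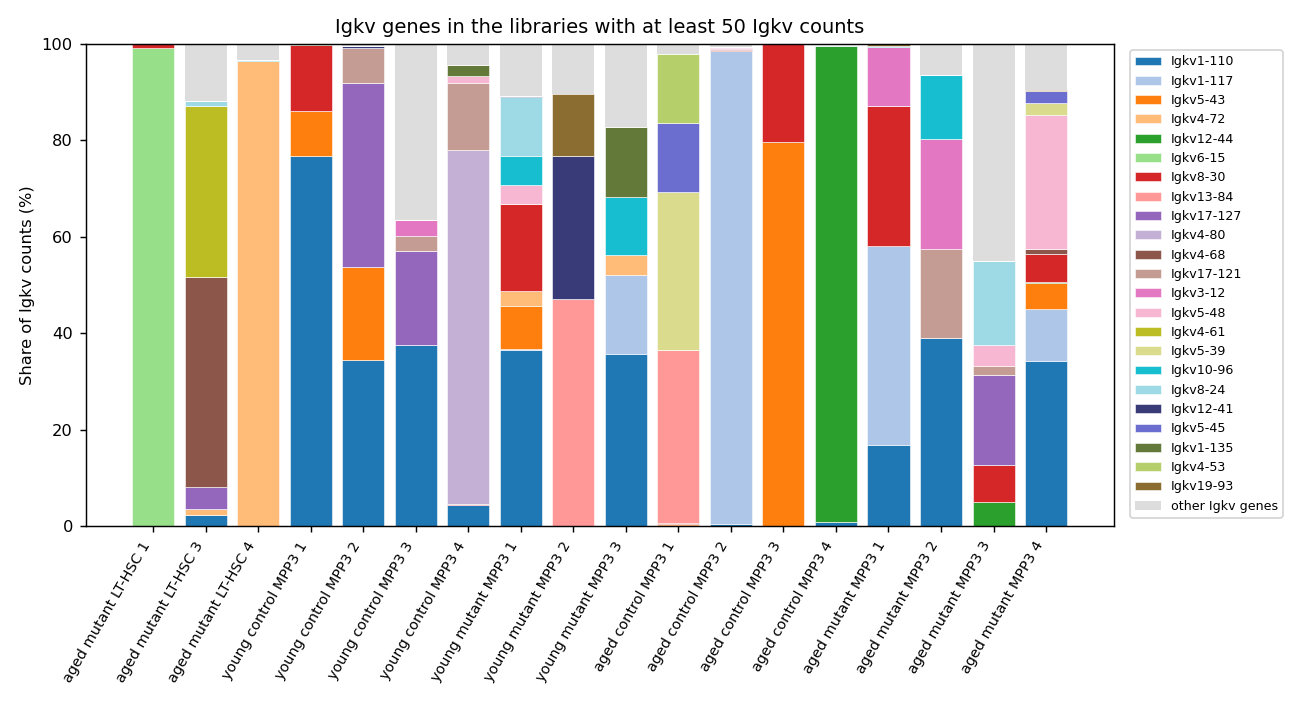
Share of each Igkv gene in the Igkv counts of the 18 libraries with at least 50 such counts (stacked bars, %), with the genes that reach 12% in any library coloured and the others in grey. Aged mutant LT-HSC replicates 1 and 4 and aged control MPP3 replicates 2 and 4 each consist almost wholly of 1 gene, while aged mutant MPP3 replicate 3 is split among many.

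The aged control MPP3 libraries had 4 different leaders. Replicate 1 had 11160 Igkv counts, led by Igkv13-84 (35.9%, interval 35.05% to 36.8%) and Igkv5-39 (32.7%). Replicate 2 had 2479 counts, of which Igkv1-117 took 98.2% (97.6% to 98.7%). Replicate 3 had 1060 counts, and 2 genes held them all, Igkv5-43 at 79.6% and Igkv8-30 at 20.4%. Replicate 4 had 5559 counts, of which Igkv12-44 took 98.7% (98.3% to 99.0%). No 2 of these libraries shared more than 0.529% of their Igkv profile, measured as the sum over genes of the smaller of both shares.

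The aged mutant MPP3 libraries had higher Igkv totals than the aged control ones. Replicate 1 had 20396 counts, led by Igkv1-117 (41.3%), Igkv8-30 (29.0%) and Igkv1-110 (16.8%). Replicate 2 had 13461 counts, led by Igkv1-110 (39.1%) and Igkv3-12 (22.7%). Replicate 3 had 9969 counts and the most even profile of all libraries, with Igkv17-127 at 18.7% and Igkv8-24 at 17.3%. Replicate 4 had 56794 counts, the most of all libraries, led by Igkv1-110 (34.4%) and Igkv5-48 (27.7%).

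In the young recipients, Igkv1-110 was the usual leader. Control replicate 1 had 3876 counts and Igkv1-110 at 76.8%, and control replicate 3 had 23696 counts and Igkv1-110 at 37.6%. Control replicate 2 had 7341 counts with Igkv17-127 at 38.2% and Igkv1-110 at 34.5%, and control replicate 4 had 551 counts with Igkv4-80 at 73.3% (69.4% to 77.0%). Mutant replicate 1 had 29324 counts with Igkv1-110 at 36.5%, and it held the largest number of Igkv genes with 3 or more counts, 31. Mutant replicate 2 had 1218 counts with Igkv13-84 at 47.2%, and mutant replicate 3 had 12648 counts with Igkv1-110 at 35.7%.

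Igkv1-110, a gene 2451 kb from Igkj1 on the plus strand (chromosome 6, 68270485 to 68271267), had the highest mean share in MPP3, 21.2% ± 23.0 (SD, n = 15). It led 6 of the 15 MPP3 libraries and reached 3 counts in 11 of them. Its counts were 0, 10, 0 and 52 in the aged control MPP3 libraries and 3425, 5264, 0 and 19530 in the aged mutant ones. They were 2977, 2533, 8917 and 25 in the young control MPP3 libraries and 10708, 0 and 4515 in the young mutant ones. The aged control libraries were all low and the other 3 groups were mixed, each with 1 library at 25 counts or fewer. In LT-HSC the gene had 35 counts in aged control replicate 3, where it was the only member seen (100%, interval 90% to 100%), and 2 in aged mutant replicate 3.

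The next genes by mean MPP3 share were Igkv1-117 (11.1% ± 26.6), Igkv5-43 (8.18% ± 20.5) and Igkv12-44 (6.91% ± 25.4), each with an SD above its mean over 15 libraries. Their means each rest mainly on 1 aged control library. Igkv8-30 had a mean share of 6.34% ± 9.49 and reached 3 counts in 8 MPP3 libraries without leading any. Igkv17-127 (5.09% ± 11.3) and its relative Igkv17-121 (2.95% ± 5.78) were seen together at 2806 and 525 counts in young control replicate 2 and at 1861 and 175 in aged mutant replicate 3. In aged mutant replicate 2 the order was the other way, with 2482 counts of Igkv17-121 and 3 of Igkv17-127, so the counts of this pair, which is 97.5% identical, did not run in parallel.

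When all libraries with an Igkv count were weighted equally, Igkv1-110 (15.5%), Igkv12-44 (6.31%), Igkv1-117 (6.18%), Igkv6-15 (6.14%) and Igkv8-24 (6.08%) had the highest mean shares. That ranking also takes in LT-HSC libraries with 1 to 3 counts, in which a single read makes a share of 33.3% or more. The mean share of Igkv8-24 in MPP3 alone was 1.98% ± 5.27.

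By family, Igkv1 held 33.8% ± 31.5 of the MPP3 Igkv counts with 11 of the 103 members, and Igkv4 held 10.4% ± 19.0 with 27. Igkv5 held 14.2% ± 23.4 with 5 members. Families Igkv7, Igkv11 and Igkv18, with 1, 2 and 1 members, had 0 counts in every library. Members on the plus strand held 52.2% ± 29.9 (range 0 to 99.0%). The 51 members farther from Igkj1 than the median distance of 1417 kb held 59.8% ± 30.4 (range 0 to 98.7%). Both shares thus ran from 0 to nearly all counts between libraries.

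**Figure D3:**
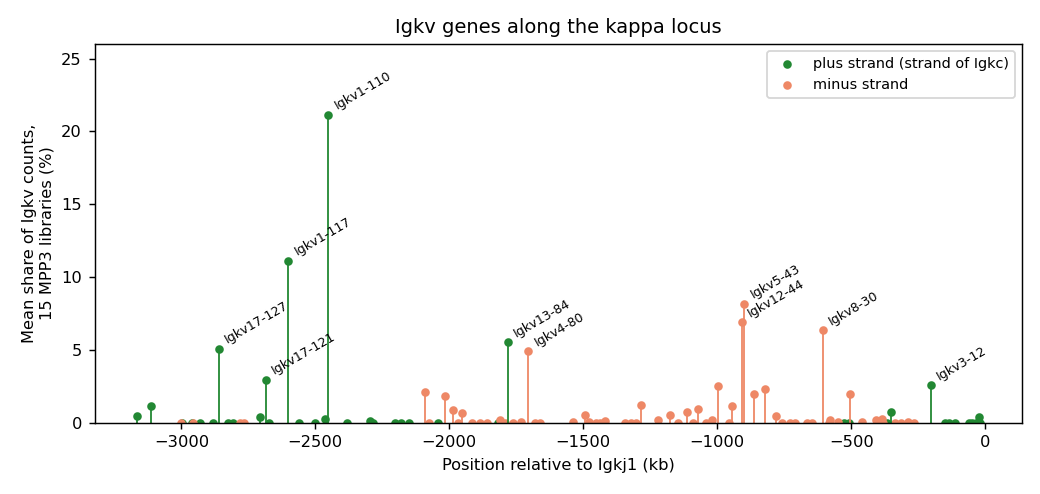
Mean share of each Igkv gene in the Igkv counts of the 15 MPP3 libraries (%) against its position relative to Igkj1 (kb), coloured by strand, with the 10 highest labelled. The highest gene, Igkv1-110, lies 2451 kb away, and Igkv3-12, at 204 kb, is the nearest of those labelled.

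The LT-HSC libraries with many Igkv counts were each dominated by 1 gene. In aged mutant LT-HSC replicate 1 there were 7822 counts, and Igkv6-15 took 7760 of them (99.2%, interval 99.0% to 99.4%), followed by Igkv8-30 with 55. In replicate 4 of that group there were 6251, and Igkv4-72 took 6028 of them (96.4%, interval 95.9% to 96.9%), followed by Igkv4-55 with 158. Replicate 3 had 85 counts divided mainly between Igkv4-68 with 37 (43.5%, interval 32.8% to 54.7%) and Igkv4-61 with 30. All 7 counts of aged mutant LT-HSC replicate 2 were of Igkv4-57. Young mutant LT-HSC replicate 2 had 19 of 23 counts in Igkv10-94 and 3 in its relative Igkv10-95.

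Heavy-chain V genes (Ighv) were counted in the same libraries, and how their shares relate to the kappa shares was not tested. In aged mutant LT-HSC replicate 1, Ighv1-26 took 98.5% of 5100 Ighv counts, and in replicate 4 Ighv1-19 took 92.8% of 14126. Sdc1, a plasma cell surface protein, was at 0 in all 13 LT-HSC libraries, replicates 1 and 4 among them. The other plasma cell and B cell genes are not given here for these replicates alone. Jchain, which links antibody subunits, had 922 and 2357 counts in replicates 1 and 4. Ighm, the constant gene of IgM, had 67672 and 79429 counts there. In MPP3 the leading Ighv share ran from 16.1% to 99.5% (median 53.1%). Aged control MPP3 replicates 2 and 4 had Ighv5-6 at 96.2% and Ighv3-6 at 95.5%, next to a kappa leader over 98%. The leading shares were far apart in other libraries. Aged control MPP3 replicate 1 had Ighv1-53 at 99.5% beside kappa genes at 35.9% and 32.7%, and aged mutant MPP3 replicate 1 had Ighv1-72 at 86.0% beside a kappa leader at 41.3%. In young control MPP3 replicate 1 it was the other way, with Ighv1-50 at 53.1% beside a kappa leader at 76.8%.

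**Figure D4:**
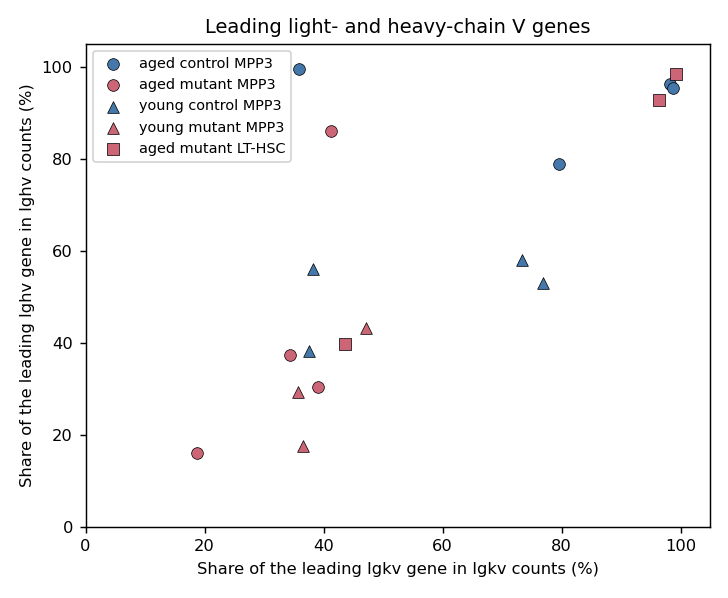
Share of the leading Igkv gene in Igkv counts (x axis, %) against the share of the leading Ighv gene in Ighv counts (y axis, %) in the 18 libraries with at least 50 Igkv counts, by group. Aged mutant LT-HSC replicates 1 and 4 and aged control MPP3 replicates 2 and 4 sit at the upper right, and aged mutant MPP3 replicate 3, at 18.7% and 16.1%, at the lower left.

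Igkc, the constant gene, had counts in all MPP3 libraries. In MPP3 there were 1.30 to 3.68 Igkc counts for each Igkv count (median 2.62), and the aged mutant LT-HSC replicates 1 and 4 had 2.36 and 2.13. In other LT-HSC libraries the counts were farther apart. There were 187 Igkc beside 7 Igkv counts in aged mutant replicate 2, 260 beside 23 in young mutant replicate 2, 211 beside 35 in aged control replicate 3 and 33 beside 3 in young control replicate 4. Aged mutant replicate 3 had 81 beside 85. The 5 Igkj segments were at 0 in every library. Igkc was higher in MPP3, as were 9 of 9 tested early B cell genes, 10 of 12 mature B cell genes, 11 of 15 plasma cell genes and 4 of 4 lambda light-chain genes (edgeR, adjusted p under 0.05). Of 10 tested genes for V(D)J recombination and end joining 4 were higher, of 11 factors that bind kappa control elements 6 were higher, and none in either list was lower. Over all genes tested, 6.35% were higher in MPP3. The lists overlap, so their counts are not separate. Rag1, Rag2 and Dntt are in both the early B cell and the recombination list. Pou2af1 and Irf4 are also plasma cell genes of the lists, and Pax5 is also a mature B cell gene. Of 44 tested Ighv genes 6 were higher, and 36 of the 44 had no usable estimate in that fit. In the other 8 comparisons edgeR called 0 genes of these lists, with 102 of 652 gene tests (15.6%) at an unadjusted p under 0.05, against 6.13% of all gene tests in those comparisons. The B-lineage genes moved with the Igkv genes between cell types, and their part in the Igkv difference was not tested.

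In aged recipients, the Igkv total was higher with Dnmt3a-mutant than with control marrow in MPP3. The aged mutant libraries had 2632, 2244, 1700 and 5493 CPM (replicates 1 to 4), and the aged control libraries 1233, 263, 136 and 556. All 4 mutant libraries lay above all 4 controls, and the difference in mean log2(CPM + 1) was 2.78 against a pooled SD of 1.09. It was 2.48 within pool 1 (3 mutant, 2 control libraries) and 2.62 within pool 2 (1 and 2).

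None of the single members separated those groups, which few genes of any kind did. Of the 60 members with at least 10 counts in MPP3, 0 had every aged mutant library above every aged control library, and 0 the reverse. Among all 17687 genes with that many counts, 1.15% had every mutant library above every control. At so low a share, 0 of 60 is no result about the members. The share of all genes for the reverse is not given here. Of the 17 members that passed the filter of the MPP3 fit, edgeR called 0 at an adjusted p under 0.05, as it did for 0% of 13933 genes. At an unadjusted p under 0.05 there were 6 (5 higher, 1 lower in mutant), against 5.77% of all genes, and DESeq2 called 4, all higher, against 0.402%. The median log2 difference of the 17 was 6.56, and that of all genes was 0.05. It ran from 3.804 to 9.19 when 1 library was left out, and with all members of at least 10 counts in the fit it was 2.54. Members passed the filter through counts in any MPP3 group, and the aged mutant libraries had higher Igkv totals than the aged control ones. That favours higher values in mutant, so these medians and the directions of the calls are a description only. Where a group is at 0, the fitted size depends on the small count that edgeR adds. Igkv5-48 had the smallest p (0.00782, adjusted p = 0.848 by edgeR's quasi-likelihood test). Its counts were 0, 1, 0 and 0 in the control and 0, 0, 440 and 15760 in the mutant libraries, so that the groups overlapped at 0. Igkv1-110, with the counts given above, had an adjusted p of 0.848 too. The 4 genes that DESeq2 called, named after their values were seen, were Igkv1-110, Igkv17-121, Igkv17-127 and Igkv10-94. The last 3 were at 0 in all aged control libraries.

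Other B-lineage readouts moved with this difference. The log2 difference of Igkc was 2.91 (SE 1.10) and that of Jchain 3.22 (SE 0.84), with adjusted p-values of 0.848 and 0.765 by edgeR. The sum over 15 plasma cell genes was 2175 to 3475 CPM in aged mutant and 495 to 623 CPM in aged control MPP3, and that over 108 Ighv genes 787 to 1611 against 74.2 to 383. The sum over 12 mature B cell genes overlapped, at 353 to 2002 against 227 to 415, as did that over 10 early B cell genes, at 606 to 2250 against 644 to 867. Of the plasma cell genes, Tnfrsf17 was at 0 in 12 of 15 MPP3 libraries and Sdc1 in 4, and the others were above 0 in at least 13. That does not bear on genotype, and Xbp1, Txndc5, Eaf2 and Tnfrsf13b were above 0 in every LT-HSC library too. Jchain had the highest median of the list in MPP3, 540 CPM. The number of recipients per library also moved with the Igkv difference, since all 4 mutant libraries pooled 2 recipients and 3 of the 4 controls came from 1. Aged control replicate 4 was the only control library with 2 recipients, so pooling and genotype cannot be told apart here. The part of B-lineage content and of pooling in the difference was not tested.

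The diversity measures of these groups overlapped. The effective number of genes was 1.03 to 3.61 in aged control and 3.35 to 9.46 in aged mutant MPP3. Genes expected in 500 counts were 2.0 to 9.10 and 5.59 to 14.6, and the leading share was 35.9% to 98.7% and 18.7% to 41.3%. Pairs of aged mutant libraries shared 20.5% ± 13.9 of their profile (6 pairs), and pairs of aged control libraries 0.146% ± 0.200 (6 pairs). Each library enters 3 of these pairs, so they are a description.

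The other MPP3 comparisons did not separate the groups. In young recipients, mutant libraries had 3784, 148 and 1617 CPM and control libraries 560, 889, 4327 and 75.3 (difference 0.61, pooled SD 2.41). It ran from -0.41 without young control replicate 4 to 1.96 without young mutant replicate 2, and was -0.38 without young mutant replicate 1. Pool 1 held no young control MPP3 library, and within pool 2 the difference was -0.38. Between aged and young control MPP3 the difference was -0.68 (pooled SD 1.95), and it was -1.21 within pool 2. It ran from -1.70 without young control replicate 4 to 0.24 without young control replicate 3. Between aged and young mutant MPP3 it was 1.49 (pooled SD 1.63), with -0.25 within pool 1, where 1 young library stood, and 1.79 within pool 2. It ran from 0.14 without young mutant replicate 2 to 2.47 without young mutant replicate 1. These comparisons share libraries with one another and with the aged comparison.

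Single members gave 0 calls by edgeR's adjusted p in these comparisons too, against 0% of all genes. At an unadjusted p under 0.05, edgeR had 5 members for genotype in young MPP3 (all higher in mutant; 6.07% of all genes), 5 for age in control MPP3 (1 higher, 4 lower in aged; 6.12%) and 3 for age in mutant MPP3 (1 higher, 2 lower; 5.28%). DESeq2 called 2 lower (0.388% of all genes), 3 lower (0.222%) and 2 higher (0.402%) in the same order. These were Igkv17-121 and Igkv17-127 each time and Igkv10-94 for age in control MPP3, and in each case the gene was at 0 in every library of 1 of the groups compared. The medians over the 17 members were 0.95, -2.61 and 0.75, and those over all genes -0.04, -0.06 and 0.05. With all members of at least 10 counts in the fit they were 0.95, -0.53 and 0. Without young control MPP3 replicate 3 the first 2 were 6.60 and 0, and without young mutant MPP3 replicate 1 the first and the third were 0 and 5.85. These medians too are a description only. Igkv4-72 had the smallest p for genotype in young MPP3 (0.00319, adjusted p = 0.793 by edgeR), with 886, 0 and 511 counts in mutant and 0 in all control libraries. It also had the smallest p for age in mutant MPP3 (0.0031, adjusted p = 0.911 by edgeR), where the same young libraries enter. For age in control MPP3 Igkv1-110 had the smallest p (0.0127, adjusted p = 0.801 by edgeR).

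In LT-HSC 0 of the 103 members passed the filter on low counts, so no single member was tested between those groups. The Igkv totals overlapped in each of the 4 comparisons. The largest differences were between aged mutant LT-HSC and aged control LT-HSC, 5.02 in mean log2(CPM + 1) with a pooled SD of 3.71, and between aged and young mutant LT-HSC, 5.37 with 4.07. Without aged mutant LT-HSC replicates 1 and 4 the first was 1.14. Within pool 1 it was 6.85 and within pool 2 it was 2.08. For genotype in young LT-HSC the difference was 0.56 (pooled SD 0.64), and for age in control LT-HSC 0.90 (pooled SD 0.93), both on counts of at most 35 per library. The former was -0.33 without young mutant LT-HSC replicate 2, and the latter 0.07 without aged control LT-HSC replicate 3.

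Animal numbers in the column names tie LT-HSC and MPP3 libraries of the same recipients, and the Igkv profiles of such libraries were compared with those of other pairs in the same group. The overlap is the sum over genes of the smaller share. It averaged 1.70% in 13 pairs with a common recipient and 1.21% in 34 pairs without one. The difference of 0.49 percentage points was within what reassigning the MPP3 libraries to recipients of their own group gives (exact permutation test over 82944 arrangements, 2-sided, p = 0.543). Young mutant LT-HSC replicate 1, with 0 Igkv counts, could not enter. Of the 13 LT-HSC libraries, 8 including that one had at most 7 Igkv counts, and shares there rest on a few reads. The test therefore cannot tell absence of sharing from lack of counts. Pairs from different pools gave a difference of 0.07 points (exact permutation p = 0.847).

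Where the LT-HSC library was deep, pairs had little in common with or without a common recipient. Aged mutant LT-HSC replicate 1, with Igkv6-15 at 99.2%, shared 0.726% with MPP3 replicate 1, which had 0 counts of Igkv6-15. Aged mutant LT-HSC replicate 4, with Igkv4-72 at 96.4%, shared 0.103% with MPP3 replicate 4, which had 0 counts of Igkv4-72. The leaders of both LT-HSC libraries were thus not seen in 20396 and 56794 Igkv counts from the same recipients. With the other aged mutant MPP3 libraries, LT-HSC replicate 1 shared 0.0128% to 0.716% and LT-HSC replicate 4 shared 0.223% to 0.604%. The highest overlaps were 10.77% between young mutant LT-HSC replicate 2 and MPP3 replicate 3, both with Igkv10-94 (19 and 1362 counts), and 9.47% between aged mutant LT-HSC replicate 3 and MPP3 replicate 3, both with Igkv17-127 (4 and 1861 counts). The highest overlap without a common recipient in the same group was 13.97%, from an LT-HSC library with 2 counts.

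Counted by gene, 6 LT-HSC libraries had 20 instances of a member with 3 or more counts. In 8 of the 20 (40.0%) the MPP3 library of the same recipients also had 3 or more counts of that gene. In the other MPP3 libraries of the group this was so in 15 of 58 library pairs (25.9%). Genes seen in many MPP3 libraries, such as Igkv1-110 and Igkv10-96, make up part of both shares.

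**Figure D5:**
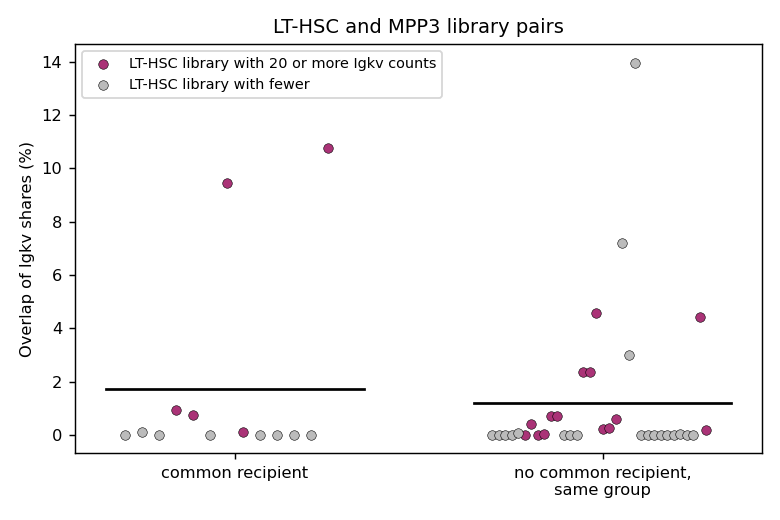
Overlap of Igkv shares (%) for each pair of an LT-HSC and an MPP3 library of the same group, by whether they name a common recipient, with the mean as a line. Pairs whose LT-HSC library has 20 or more Igkv counts are coloured, and both kinds of pair lie mostly near 0, with means of 1.70% and 1.21%.

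The test was sensitive to single libraries. Leaving out young control LT-HSC replicate 1, which had 2 Igkv counts, gave a difference of 1.30 points (exact permutation p = 0.0119), and leaving out young control MPP3 replicate 1 gave 0.52 points (exact permutation p = 0.0116). Leaving out aged mutant MPP3 replicate 3, young mutant LT-HSC replicate 2 or young mutant MPP3 replicate 3 turned it to -0.23, -0.19 and -0.26. With the 3 LT-HSC libraries of at least 50 Igkv counts it was 2.12 points (3 against 9 pairs, exact permutation p = 0.167, where the smallest possible is 0.0417).

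Among MPP3 libraries, overlap did not follow the groups. It averaged 15.9% ± 18.8 over 21 pairs of the same group and 14.6% ± 17.7 over 84 pairs of different groups. By sequencing pool it was 14.01% ± 17.4 (51 pairs) within and 15.6% ± 18.3 (54 pairs) between pools. The closest pair was young control replicate 1 and young mutant replicate 1, at 59.3%, with Igkv1-110 at 76.8% and 36.5% and Igkv8-30 at 13.7% and 18.01%. Within groups, young control pairs averaged 27.1% ± 21.9 and young mutant pairs 15.5% ± 25.7.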

How the data were processed

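The authors deposited 1 table of whole-number gene counts, not normalized. Per the submitters' processing notes the tools were RSEM 1.2.12, Bowtie2 2.2.0, SAMtools 0.1.18 and edgeR 3.5.3 with build GRCm38, so the counts may be rounded estimates that divide reads between similar Igkv genes. Strand handling is not given in the sources used here. GENCODE M21 matched 37607 of 38924 identifiers (96.6%) and gave symbols, positions and sequences.

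CPM use edgeR 4.0.16 TMM library sizes (R 4.3.3). Genes kept by filterByExpr were tested with edgeR's quasi-likelihood test (1 coefficient per group, 1 fit per cell type, 1 over all 28 libraries), adjusted by Benjamini-Hochberg over all genes at 0.05, with DESeq2 1.42.0 as an alternative. The tests were tested on simulated data. Igkv totals are differences in mean log2(CPM + 1). A permutation p planned for them was left out, since a sum over chosen members is a score. The members, lists and tests were chosen with earlier results of these data known. Genes named are the leader of each library, those with the highest mean shares, and those with the smallest p per comparison. The 2 sequencing pools of 14 were inferred from library and sheet numbers in the column names. Libraries that name a common recipient formed the block in the cell type comparison.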

Additional observations from a re-analysis of the deposited data

Results flagged for a closer look

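Aged mutant LT-HSC replicate 3 stood apart from the other 3 libraries of its group by a rule on the gap to the nearest value. Its leading gene held 43.5% of the Igkv counts, against 96.4% to 100% in the others. Its effective number of Igkv genes was 3.11, against 1.0 to 1.07. The leader Igkv4-68 had 37 counts beside 30 of Igkv4-61, which is 96.3% identical to it. With near-identical genes merged, as was done above, the leading share was 88.2%. It was then 99.2%, 100% and 99.0% in replicates 1, 2 and 4. The part that splitting of counts between copies has in the flags was not tested. Replicate 3 had 85 Igkv counts, and another library of the group had 7. A gap flagged by the rule arises by chance in about 5% of groups. In all, 19 group values were examined, of which 2 were flagged, both in this library. Both were computed from the same Igkv shares, so they are not separate signals.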

How the results depend on the processing

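For the Igkv totals, leaving out the leading gene of each library gave 5.80 for genotype in aged MPP3, -2.97 for age in control MPP3 and -0.0496 for age in control LT-HSC. Leaders held 35.9% to 98.7% in aged control and 18.7% to 41.3% in aged mutant MPP3. Leaving them out thus took more from the aged controls, and the 5.80 is no sign of a larger difference. Within pool 1, age gave -0.0602 in control LT-HSC and -0.25 in mutant MPP3. Genotype in aged LT-HSC gave 1.14 without the libraries over 1% immunoglobulin, and genotype in young LT-HSC ran from -0.33 to 1.44 when 1 library was left out. Sharing gave 3.505 points with the mean share subtracted (exact permutation p = 0.129), 1.39 by Jaccard index (p = 0.181), 1.34 by cosine (p = 0.367) and 1.09 for exactly the same recipients (p = 0.550). It gave -5.37 points by family, -1.06 without the libraries over 1% immunoglobulin and -0.26 to 1.30 when 1 library was left out. Genes called in MPP3 against LT-HSC were 15 with the replicate block by recipient and 25 in the additive model. They were 0 without the libraries over 1% immunoglobulin and 2 to 7 without 1 library. Within pools 1 and 2 they were 2 and 0, against 1.21% and 3.17% of all genes. The shares of all genes for the other fits are given above. DESeq2 called 4 and 2 genes for genotype in aged and young MPP3, and 3 and 2 for age in control and mutant MPP3. Apart from these, 168 of the other settings for genes called stayed within 1.5 times the count given, where 0 against 0 was taken as the same. In the 8 comparisons within a cell type the count given was 0, and in LT-HSC no member passed the main filter. That number is therefore no measure of stability. The causes of the moves were not tested. Leaving out libraries over 1% immunoglobulin was not possible for the totals of aged mutant MPP3, as all 4 exceed it.

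Replicate numbers within a cell type stand for different recipients. For this check the group mean of each gene was subtracted from log2(CPM + 1), and only libraries of different groups were compared. The remainders of same-numbered libraries correlated between -0.03 and 0.03 in LT-HSC and between -0.07 and 0.16 in MPP3. In 1 of 13 and 5 of 15 libraries the best correlation was with a library of their own number. A block on that number left the calls at 0 in the 8 comparisons within a cell type, though in LT-HSC no member was tested. Precision is limited by 2 to 4 libraries a group and, in 8 LT-HSC libraries, by at most 7 Igkv counts.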

Other observations

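The constant genes beside the Igkv transcripts differed in kind. In MPP3, Igha, the constant gene of IgA, had 514 to 29041 CPM (median 2347) and Ighm 141 to 7796 CPM (median 430). In aged mutant LT-HSC replicates 1 and 4, Ighm had 10033 and 13846 CPM, and Igha 2.97 and 1.22 CPM. Lambda light-chain genes summed to 5887 CPM in the highest MPP3 library, against a median of 102 CPM.

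The 8 LT-HSC libraries with at most 7 Igkv counts held 19 counts of all members. Except for 1 gene, all were of genes with 1774 or more counts in another library that shares no recipient. Some of those libraries were in the same sequencing pool and some in the other. Igkv6-15 had 2 counts in aged control LT-HSC replicate 1 and 7760 in aged mutant LT-HSC replicate 1, of the other pool. Igkv12-44 had 2 counts in young control LT-HSC replicate 4 and 5485 in aged control MPP3 replicate 4, of the same pool. How often this holds for Igkv counts at large was not counted, and the source of these counts was not tested. The exception was Igkv4-57, with 7 counts in aged mutant LT-HSC replicate 2 and at most 3 elsewhere.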
